A study of Mus musculus with 165 samples.

Results

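The 10 genes described here are the G1 cyclins *Ccnd1*, *Ccnd2*, *Ccnd3*, *Ccne1* and *Ccne2*, the kinase gene *Cdk6*, and the CDK inhibitor genes *Cdkn1a*, *Cdkn1b*, *Cdkn2c* and *Cdkn2d*. They were taken by symbol from the 36255 genes of the deposited table, all 10 were found, and all 10 were among the 17414 genes that passed the filter on low values. Their values were followed over every time point of 2 cytokine conditions in PUER cells, a cultured line that makes macrophages in IL3 and neutrophils in GCSF once PU.1 is activated.

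PUER cells are progenitors with the genotype Spi1-/-, so they lack endogenous PU.1. The study's paper names fetal liver as their source in its introduction and bone marrow in its results. Every group carries a PU.1 fusion whose other portion is the estrogen receptor's ligand-binding domain. It becomes active when 4-hydroxytamoxifen (OHT) is added. The groups were undifferentiated cells kept in IL3 without OHT (3 libraries), cells given GCSF for 48h and not yet OHT (GCSF 0h, 3 libraries, whose titles name OHT although the treatment protocol puts 0h ahead of it), cells in IL3 with 200 nM OHT (IL3-OHT, 81 libraries) and cells in GCSF with 100 nM OHT after the pre-treatment (GCSF-OHT, 78 libraries). OHT time points ran from 1h to 168h, 27 in each cytokine, with 3 libraries each except GCSF-OHT 96h, 112h and 152h, which had 2. OHT dose and cytokine changed together, so their parts cannot be told apart. No library without OHT was taken after 0h, so OHT and time in culture cannot be told apart. An OHT effect below is a time point with OHT against its own start. The libraries of a time point came from wells of 1 plate that served that time point only, so time point and plate cannot be told apart either, and p-values measure the spread between those wells. Cells of time points after 24h were detached with trypsin, which earlier ones were not. PUER is a single line, and *Spi1* reads cannot check the null allele because the fusion carries PU.1 sequence.

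D-type cyclins bind CDK4 or CDK6 and start the phosphorylation of the retinoblastoma protein, and E-type cyclins bind CDK2 and complete it, which frees E2F factors to switch on genes of S phase. INK4 proteins, among them p18 (*Cdkn2c*) and p19 (*Cdkn2d*), bind CDK4 and CDK6, whereas the CIP/KIP proteins p21 (*Cdkn1a*) and p27 (*Cdkn1b*) bind cyclin and CDK complexes, CDK2 complexes above all. Myeloid progenitors divide while they mature, and leave the cell cycle as they become neutrophils or macrophages. Many of these proteins are also controlled by degradation and by where they sit in the cell, which RNA levels do not show.

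RefSeq promoter sequence (GRCm38.p6, 250 bases before a transcription start) was at hand for 7 of the 10 genes, and was not at hand for *Ccnd1*, *Ccnd2* and *Ccne2*. The windows of *Cdkn1b*, *Cdkn2d* and the upstream start of *Ccnd3* are shown because these 3 genes rose between 8h and 12h in IL3, as described further on. Capitals mark CCAAT in the first, its reverse complement ATTGG in the second, and TGTTTAC, the reverse complement of the FOXO motif GTAAACA, in the third. *Cdkn2d* is on the minus strand and the others on the plus strand, and all read 5′ to 3′ toward the start.
Cdkn1b, chr6:134920151-134920400: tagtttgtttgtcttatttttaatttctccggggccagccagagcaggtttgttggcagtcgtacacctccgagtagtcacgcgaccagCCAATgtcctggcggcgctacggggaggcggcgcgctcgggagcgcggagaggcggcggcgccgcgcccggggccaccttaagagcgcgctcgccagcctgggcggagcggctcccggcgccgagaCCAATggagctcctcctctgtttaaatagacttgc
Cdkn2d, chr9:21291210-21291459: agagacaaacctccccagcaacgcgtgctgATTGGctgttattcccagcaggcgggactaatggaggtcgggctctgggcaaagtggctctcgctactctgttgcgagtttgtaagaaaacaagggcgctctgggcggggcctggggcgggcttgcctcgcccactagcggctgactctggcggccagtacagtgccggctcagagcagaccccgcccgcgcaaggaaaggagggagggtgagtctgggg
Ccnd3, chr17:47504801-47505050: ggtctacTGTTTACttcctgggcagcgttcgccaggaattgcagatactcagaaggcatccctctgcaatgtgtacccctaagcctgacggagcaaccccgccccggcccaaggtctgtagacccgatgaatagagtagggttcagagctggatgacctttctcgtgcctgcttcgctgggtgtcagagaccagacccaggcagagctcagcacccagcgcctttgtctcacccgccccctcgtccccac

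In the *Cdkn1b* window CCAAT began 161 and 35 bases before the start, in the *Cdkn2d* window ATTGG began 220 bases before it, and in the *Ccnd3* window TGTTTAC began 243 bases before it. The window of the downstream start of *Ccnd3*, not shown, held CCAAT and no FOXO motif. Over 32851 RefSeq promoter windows of the same length, 33.8% held CCAAT on either strand and 3.17% held GTAAACA on either strand. Further motifs were searched on both strands, and not all of them are given here. The PU.1 motif GAGGAAGT was in 2.44% of all windows and in no window of these 7 genes. The shorter ETS motif GAGGAA, in 23.3% of all windows, matched as TTCCTC 150 bases before a start of *Cdkn2c*. The E2F motif TTTCCCGC was in 0.895% of all windows and in none of these 7 genes. In the *Cdkn1b* window the FOXO motif had no match. A match or its absence describes these letters in these windows and was not tied to binding.

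Depth was 14600246 to 33147945 gene reads a library, with a median of 21960878, so that 3 reads, used as the floor of detection, corresponded to 1.96 to 5.51 normalized counts. Of the markers of other lineages, *Hba-a1*, *Hbb-bt*, *Cd3e*, *Ms4a1*, *Cpa3* and *Fcer1a* had at most 3 reads in every library of undifferentiated cells, GCSF 0h and both 168h groups. Other genes of the same lists were detected. *Mcpt8* had 172.7 to 201.5 normalized counts in undifferentiated cells, 232 to 247 at GCSF 0h, 43.9 to 56.7 at IL3-OHT 168h and a median of 110.8 at GCSF-OHT 168h, *Klf1* reached at most 48 reads and *Cd79a* at most 14 in these groups. Of 5 progenitor markers, *Cd34* was also at that floor in those 4 groups. The summed normalized count of 6 neutrophil markers was 215989 to 223211 in undifferentiated cells, 293128 to 329511 at GCSF 0h, 199487 to 227734 at IL3-OHT 168h and 644970 to 689523 at GCSF-OHT 168h. That of 6 monocyte or macrophage markers was 2714 to 2982, 868 to 1163, 12718 to 13772 and 8766 to 9911 in the same order. Members of a list did not all move together. In both 168h groups *Elane* and *Camp* had lower medians than undifferentiated cells, and *Ltf*, *Lcn2*, *S100a8* and *S100a9* higher ones. Median *Elane* was 108229 in undifferentiated cells, 28234 at IL3-OHT 168h and 67999 at GCSF-OHT 168h. Median *Lcn2* was 14644, 50840 and 123288 in that order. Among the monocyte or macrophage markers only *Csf1r* had a lower median at IL3-OHT 168h and only *Cd68* at GCSF-OHT 168h. Sums of 5 erythroid and 4 mast cell or basophil markers reached at most 65.3 and 256 in these groups, and 5 progenitor markers summed to 15097.0 to 16077 in undifferentiated cells, 5482 to 5728 at IL3-OHT 168h and 18267 to 22326 at GCSF-OHT 168h, where *Mpo* made up most of the sum. Of the progenitor markers, *Kit*, *Sox4* and *Flt3* had lower medians in both 168h groups than in undifferentiated cells. Median *Mpo* was 3858 in undifferentiated cells, 2665 at IL3-OHT 168h and 16178 at GCSF-OHT 168h, and median *Sox4* was 7598, 1581 and 638. The part of these changes in cell makeup in the results below was not tested. In such bulk samples, fewer cells of a type and less RNA per cell cannot be told apart.

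Values below are the deposited normalized counts. A gene was called where limma, fitted on log2(normalized count + 1) over all genes, gave a Benjamini-Hochberg adjusted p under 0.05 with an absolute log2 fold change over 0.58, and fold changes are on that log2 scale. The authors had set IL3-OHT 96h and 144h aside as outliers, and here both entered no comparison except where they are named. To compare genes with each other, levels were divided by the length of the longest coding transcript, in normalized counts per kb, and the isoforms in use were not known. For *Cdk6* the longest is 11525 bases and the shortest 2470, so the order of genes can depend on that choice. In undifferentiated cells *Cdkn1a* was the highest at 7026 ± 113 per kb (SD, n = 3). *Ccnd3* followed at 2644 ± 31.5 and *Ccnd2* at 2283 ± 35.6, then *Cdk6* at 530.5 ± 6.01 and *Cdkn2d* at 258 ± 28.5. *Cdkn2c*, *Cdkn1b*, *Ccne1* and *Ccne2* lay between 87.7 ± 11.9 and 183.3 ± 23.5, where the SDs of the E cyclins left their order open, and *Ccnd1* was last at 3.67 ± 0.754. At GCSF-OHT 168h *Cdkn1a* at 4192 ± 305 per kb and *Ccnd3* at 3779.7 ± 169.1 were highest, with SDs that overlapped, and then came *Cdkn2d* at 1428 ± 36.7. *Cdk6*, *Cdkn1b* and *Ccnd2* followed within a narrow span, at 861 ± 26.4, 795 ± 69.9 and 760.0 ± 19.9, and the SDs of *Cdkn1b* overlapped those of both neighbours. At IL3-OHT 168h *Ccnd2* held the third place at 3003 ± 86.9 per kb and *Cdkn1b* the fourth at 981 ± 19.6.

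**Figure D1:**
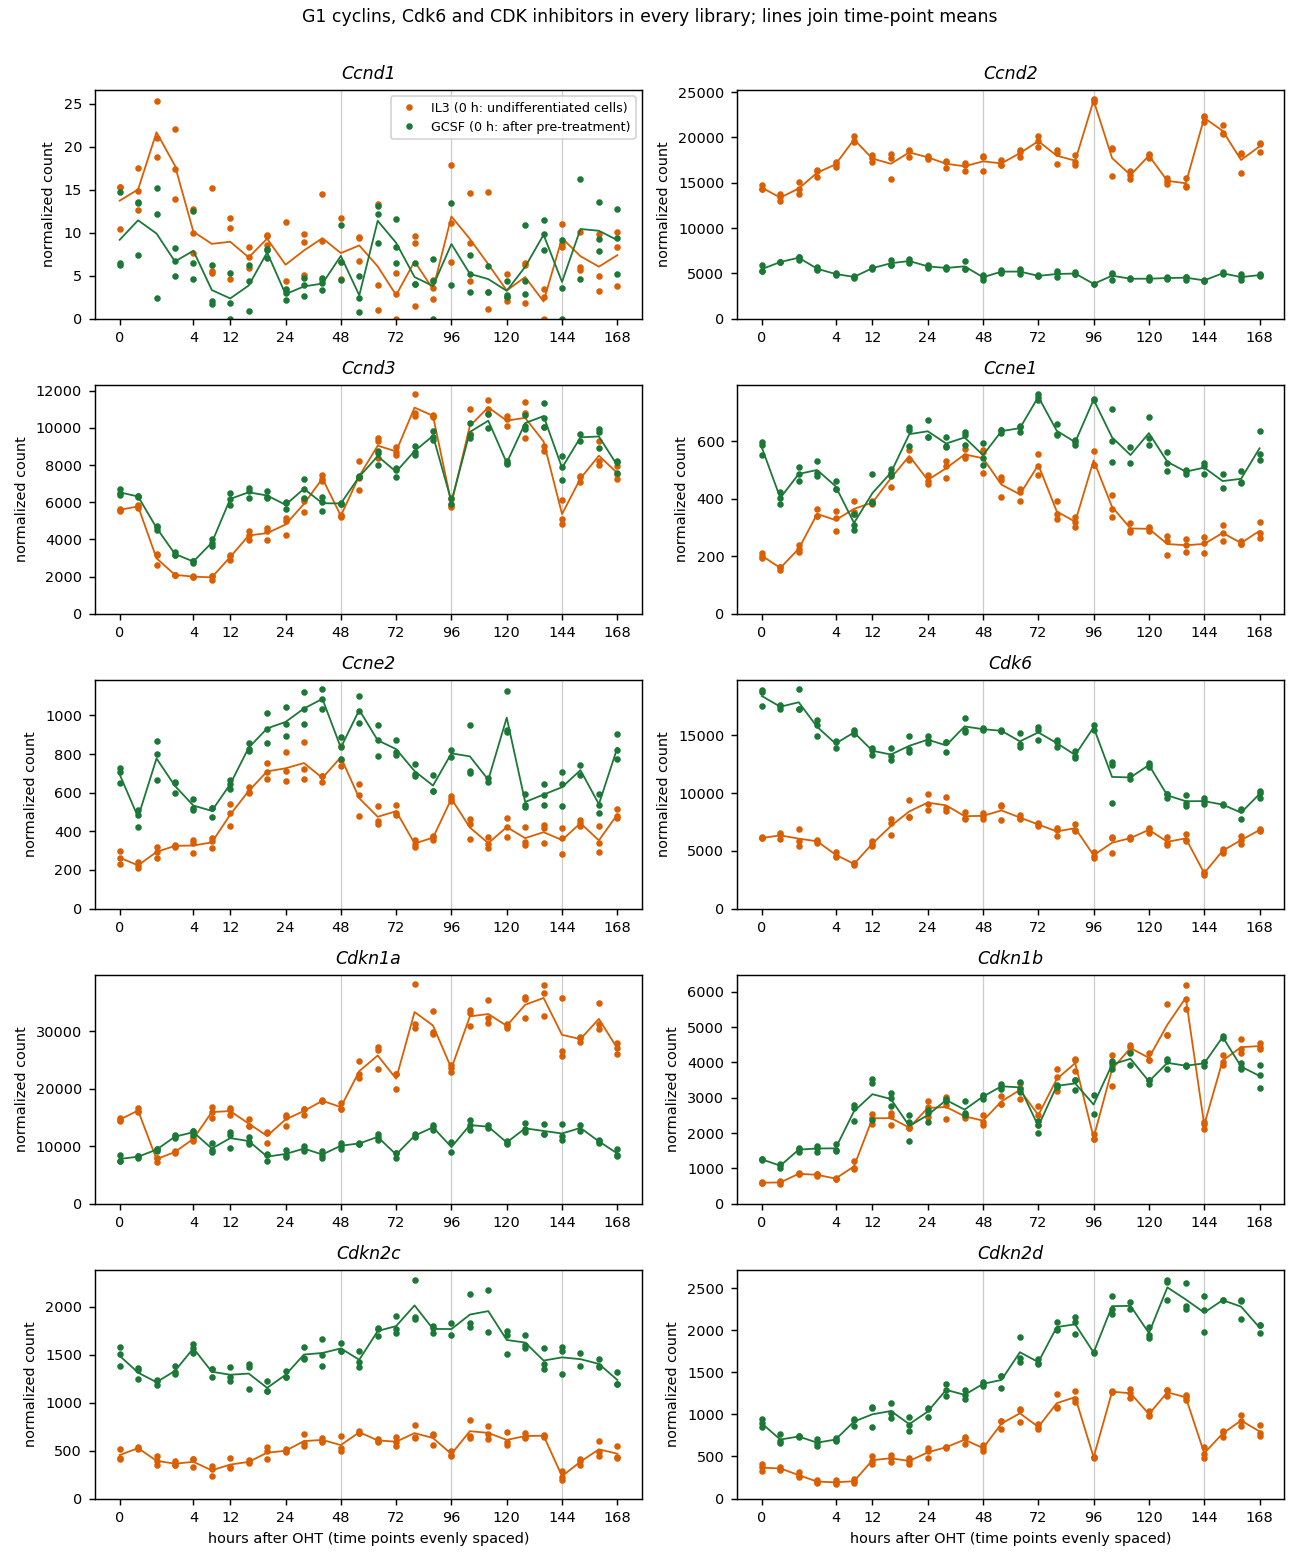
Normalized count (vertical axes, from 0) of each gene in every library (points) against hours after OHT (horizontal axes, time points evenly spaced, not to scale), with lines through the time-point means. IL3 is orange and starts from undifferentiated cells, GCSF is green and starts from GCSF 0h, and grey lines mark 48h, 96h and 144h. The courses of *Ccnd2* and *Cdkn2c* stay apart throughout, those of *Ccnd3* and *Cdkn1b* cross several times after 32h, and *Ccnd1* never exceeds 25.3 normalized counts.

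Among the D cyclins, *Ccnd2* (ENSMUSG00000000184, GRCm38 chromosome 6 from 127125162 to 127152193) separated the cytokines most cleanly. Its normalized counts were 14362, 14283 and 14706 in undifferentiated cells and 5972, 5217 and 5226 at GCSF 0h. It fell with the pre-treatment (log2 fold change -1.40, SE 0.05, adjusted p = 2.80e-50). After OHT the 75 IL3-OHT libraries kept in the fit lay at 12930.0 to 21335 (median 17481) and the 78 GCSF-OHT libraries at 3838 to 6845 (median 4950.3), so no GCSF-OHT library reached the lowest IL3-OHT library. At the time points kept in the fit *Ccnd2* changed little after OHT. None of them was called against its own start, the largest mean in IL3 being 20724 ± 536 (SD, n = 3) at 152h (log2 fold change 0.52) and the lowest in GCSF 3844 ± 8.48 (SD, n = 2) at 96h (log2 fold change -0.51). Both had an adjusted p under 0.05 and missed the fold-change threshold. *Ccnd2* was higher still at IL3-OHT 96h and 144h, described with the medium changes, and those time points were not tested against the start. Over all genes tested, 26.7% of pairs of gene and time point were called against the start in IL3 and 15.4% in GCSF, and over both courses 9.66% were called higher and 11.2% lower.

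*Ccnd3* (ENSMUSG00000034165, chromosome 17 from 47505051 to 47599691) showed the opposite arrangement. It had a large change after OHT and, after the first 16h, no called difference between the cytokines. Undifferentiated cells had 5524, 5581 and 5657 normalized counts and GCSF 0h 6402, 6728 and 6479, a difference under the fold-change threshold (log2 fold change 0.23, SE 0.06, adjusted p = 8.59e-04). In IL3 it dropped between 1h and 2h (log2 fold change -0.96, adjusted p = 5.31e-28) and was lowest at 8h, with 1808, 2013 and 2046, well below every undifferentiated library (log2 fold change -1.52, SE 0.06, adjusted p = 3.09e-45). It then rose between 8h and 12h (log2 fold change 0.64, adjusted p = 2.24e-16), was called above the start at 10 of 25 time points, the earliest at 64h, and peaked at 11108 ± 363 (SD, n = 3) at 112h (log2 fold change 0.99). In GCSF the dip was shallower and its lowest mean came at 4h, with 2842, 2843 and 2741 (log2 fold change -1.22 against GCSF 0h). There *Ccnd3* was first called below its start at 3h, against 2h in IL3, and it had 4009, 3797 and 3661 at 8h. The rise from 8h to 12h was called there too (log2 fold change 0.69, adjusted p = 5.85e-17), and the peak was 10641 ± 677 (SD, n = 3) at 136h. At 168h it stood at 7573 ± 355 (SD, n = 3) in IL3 and 7987 ± 357 (SD, n = 3) in GCSF, both above their starts by less than the threshold (log2 fold changes 0.44 and 0.29). The gene shares 361 exonic bases with *Bysl* on the opposite strand, and whether the counting used strand is not given in the sources used here.

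Set against each other per kb of transcript, *Ccnd2* and *Ccnd3* changed places in IL3 but not in GCSF. *Ccnd2* made up 46.3% ± 0.228 (SD, n = 3) of the summed D cyclin level in undifferentiated cells and 21.8% ± 1.67 at GCSF 0h. In IL3 the share climbed to 77.1% ± 1.44 at 8h, when *Ccnd3* was at its lowest, and was down to 32.3% ± 1.22 at 112h. By 168h the share in IL3 was back at 45.6% ± 1.86, near that of undifferentiated cells. In GCSF it went from 36.9% ± 0.498 at 4h to 12.5% ± 0.813 at 136h, with *Ccnd3* making up nearly all the rest. No GCSF-OHT library had a share above 37.3%. The share uses the longest coding transcript of each gene, which for *Ccnd2* is 6330 bases against 983 for the shortest, so its size depends on that choice. *Ccnd1* (ENSMUSG00000070348, chromosome 7 from 144929931 to 144939925), which shares 1100 exonic bases with *LTO1* on the opposite strand, contributed next to nothing, with 0 to 26 reads in IL3 libraries and 0 to 16 in GCSF libraries, some of them at or under the floor of 3 reads. It was called in the tests of change over time, in GCSF not without replicate 1 or replicate 3 (adjusted p = 0.286 and 0.0791), and its fold changes carry standard errors of about 0.62. It was called below the start at 7 of 25 time points in IL3, the lowest being 136h (log2 fold change -2.53, adjusted p = 2.01e-04), and at 2 of 27 in GCSF. Between the cytokines it was called lower in GCSF at 2 shared time points and higher at 2. The mean of 2.00 normalized counts at IL3-OHT 136h lay below the detection floor of the libraries of that time point (3.51 to 3.83). The size of such changes therefore depends on the pseudocount.

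**Figure D2:**
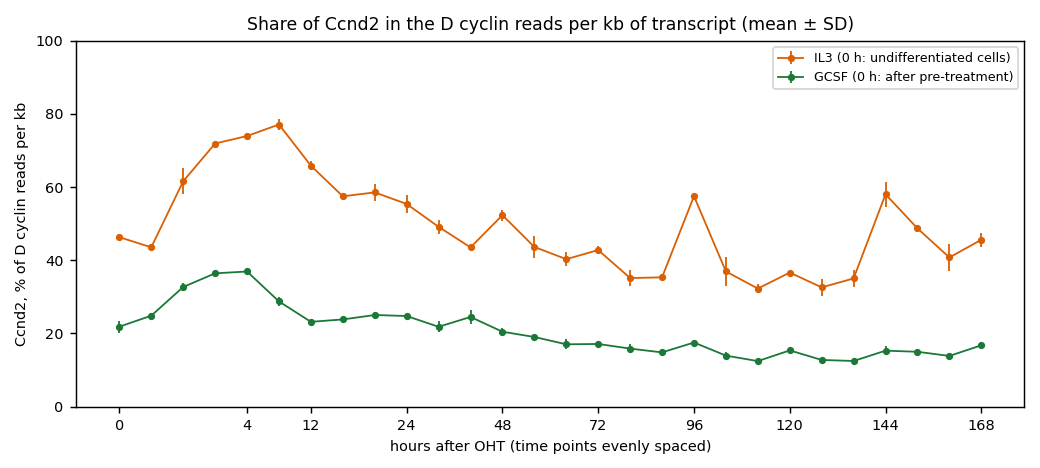
Share of *Ccnd2* in the summed D cyclin level per kb of transcript (vertical axis, percent, 0 to 100) against hours after OHT (horizontal axis, evenly spaced time points), as mean ± SD of the 3 (or 2) libraries. The IL3 course (orange) lies above the GCSF course (green) at every time point, and both rise over the first hours to 77.1% at 8h in IL3 and 36.9% at 4h in GCSF.

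The E cyclins were higher after the GCSF pre-treatment, before OHT was added. *Ccne1* (ENSMUSG00000002068, chromosome 7 from 38097984 to 38107534) had 194, 200.5 and 211.5 normalized counts in undifferentiated cells and 553, 586 and 596 at GCSF 0h (log2 fold change 1.51, SE 0.08, adjusted p = 7.05e-36). *Ccne2* (ENSMUSG00000028212, chromosome 4 from 11191351 to 11204779) had 229, 262 and 300.2 and 652, 707 and 725 (log2 fold change 1.40, SE 0.11, adjusted p = 9.95e-24). For both genes the groups did not overlap. After OHT *Ccne1* moved in opposite directions by 8h. It rose in IL3 to 347, 393 and 355 (log2 fold change 0.85) and fell in GCSF to 291, 310.3 and 347 (log2 fold change -0.87). The highest GCSF library was then level with the lowest IL3 library, and the log2 difference between the groups was -0.21. In IL3 *Ccne1* went on to 555 ± 17.5 (SD, n = 3) at 40h, was called above the start at 16 of 25 time points, and was back to 288 ± 27.3 (SD, n = 3) at 168h (log2 fold change 0.51, under the threshold). In GCSF only 8h was called against GCSF 0h, and 168h was 576 ± 53.4 (SD, n = 3).

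*Ccne2* followed *Ccne1* in IL3. It was called above undifferentiated cells from 12h on at 15 of 25 time points, reached 783 ± 53.2 (SD, n = 3) at 48h (log2 fold change 1.57), and was still higher at 168h with 468, 515 and 477 (log2 fold change 0.89, SE 0.11, adjusted p = 1.08e-12). In GCSF it was called above GCSF 0h at 40h only, with 1085 ± 51.2 (SD, n = 3). The called steps in GCSF were 1h to 2h upward (log2 fold change 0.71, adjusted p = 1.95e-08), 120h to 128h downward (log2 fold change -0.83, adjusted p = 8.34e-10) and 160h to 168h upward (log2 fold change 0.62, adjusted p = 2.93e-06). The GCSF-OHT 120h libraries were among 6 libraries, all of 120h, that carry another name prefix in the deposited table. *Ccne2* shares 609 exonic bases with *Ints8* on the opposite strand.

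*Cdk6* (ENSMUSG00000040274, chromosome 5 from 3341485 to 3531008), the kinase partner of the D cyclins in this list, was highest after the pre-treatment and declined from there. Undifferentiated cells had 6069, 6079 and 6193 normalized counts and GCSF 0h 17512, 18929 and 18740.0 (log2 fold change 1.59, SE 0.07, adjusted p = 9.80e-45). In GCSF it was called below GCSF 0h at 8 of 27 time points, the earliest at 104h, with the lowest mean of 8307 ± 476 (SD, n = 3) at 160h and 9988, 10180.2 and 9584 at 168h (log2 fold change -0.89, SE 0.07, adjusted p = 3.29e-24). Even so, all 3 GCSF-OHT libraries of 168h stayed above every undifferentiated library. In IL3 it dipped to 3923, 3925 and 3759.5 at 8h (log2 fold change -0.66, SE 0.07, adjusted p = 1.89e-16), reached 9174 ± 684 (SD, n = 3) at 24h, and at 168h was 6802 ± 71.8 (SD, n = 3) against 6114 ± 69.3 (SD, n = 3) at the start.

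Of the CIP/KIP inhibitors, *Cdkn1a* (ENSMUSG00000023067, chromosome 17 from 29090976 to 29100727), which encodes p21 and is a standard target of p53, was lower in GCSF both before OHT and at the end of the course. It had 14849.7, 14378 and 14612 normalized counts in undifferentiated cells and 8409, 7438 and 7446 at GCSF 0h (log2 fold change -0.91, SE 0.07, adjusted p = 2.15e-22). In IL3 it fell between 1h and 2h to 7984, 7964 and 7236 (log2 fold change -1.07, adjusted p = 2.79e-26) and was back at 14969.8, 16841 and 15954 by 8h. It was called above the start at 12 of 25 time points from 56h on, with a step up from 72h to 80h (log2 fold change 0.61, adjusted p = 1.69e-11), and its mean was highest at 136h with 35775 ± 2809 (SD, n = 3). In GCSF it rose within the first hours to 12574, 12711 and 11982 at 4h (log2 fold change 0.68). It was called above GCSF 0h at 10 of 27 time points, peaking at 13662 ± 938 (SD, n = 3) at 104h, and had 9429, 8531 and 8201 at 168h (log2 fold change 0.17, not called). At 168h IL3-OHT had 27949, 26083 and 26998, so the courses ended 1.63 apart on the log2 scale, IL3-OHT higher.

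*Cdkn1b* (ENSMUSG00000003031, chromosome 6 from 134920401 to 134925513), which encodes p27, rose most in both courses. Its normalized counts were 572, 618 and 585 in undifferentiated cells, 997, 1194 and 975 at IL3-OHT 8h and 2554, 2254 and 2439 at 12h. The step from 8h to 12h was the largest in IL3 among the genes of the list other than the barely detected *Ccnd1* (log2 fold change 1.20, adjusted p = 3.03e-24), and every time point from 8h on was called above the start (21 of 25). The highest mean was 5834 ± 342 (SD, n = 3) at 136h (log2 fold change 3.30), and 168h had 4383, 4449 and 4560.2 (log2 fold change 2.91, SE 0.08, adjusted p = 1.34e-59). In GCSF it had already risen with the pre-treatment, to 1277, 1224 and 1259 (log2 fold change 1.08, SE 0.08, adjusted p = 5.14e-23). With OHT it rose between 4h and 8h (log2 fold change 0.74, adjusted p = 1.02e-12), was called above GCSF 0h at 23 of 27 time points, and reached 4723 ± 23.6 (SD, n = 2) at 152h and 3918, 3654 and 3285 at 168h (log2 fold change 1.53, SE 0.08, adjusted p = 7.19e-34). The courses ended near each other, with a log2 difference of -0.31 at 168h that was not called.

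The INK4 genes *Cdkn2c* (ENSMUSG00000028551, chromosome 4 from 109660876 to 109667189) and *Cdkn2d* (ENSMUSG00000096472, chromosome 9 from 21288410 to 21291407) were both higher in GCSF at all 25 shared time points. *Cdkn2c* had 423, 416 and 520.0 normalized counts in undifferentiated cells and 1385, 1501 and 1574 at GCSF 0h (log2 fold change 1.72, SE 0.10, adjusted p = 3.63e-31). IL3-OHT libraries lay at 232 to 822 (median 545) and GCSF-OHT libraries at 1117 to 2276 (median 1479), with no overlap. At the time points kept in the fit *Cdkn2c* changed little after OHT in GCSF, whereas in IL3 it was called for change over time. No time point in GCSF was called against GCSF 0h, and in IL3 4 time points were called higher, the highest being 104h with 822, 629 and 653, and 1 lower, 8h, with 232, 339 and 310.4. The call at 8h was lost without replicate 1 (log2 fold change -0.52) or without replicate 3 (-0.58, just under the threshold).

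*Cdkn2d* combined both patterns. The pre-treatment took it from 324, 371 and 405 to 845, 893 and 939 (log2 fold change 1.28, SE 0.08, adjusted p = 1.11e-29). In IL3 it first fell after OHT, to 219, 173.3 and 187.3 at 4h (log2 fold change -0.92). It then stepped up from 8h to 12h (log2 fold change 1.15, adjusted p = 2.80e-24). It was called above the start at 16 of 25 time points from 32h on, with 1269 ± 8.08 (SD, n = 3) at 104h and 869, 745 and 779.5 at 168h (log2 fold change 1.12, SE 0.08, adjusted p = 4.58e-25). In GCSF there was no called dip, 16 of 27 time points from 48h on were called above GCSF 0h, and the mean reached 2509.6 ± 128.8 (SD, n = 3) at 128h. At 168h GCSF-OHT had 2067, 2058 and 1972, all above every IL3-OHT library of that time (log2 fold change 1.19, SE 0.08, adjusted p = 6.35e-27 against GCSF 0h).

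Counted over the list, the pre-treatment alone moved most of these genes. Against undifferentiated cells, 8 of 10 were called at GCSF 0h, where 33.7% of all genes tested were called. The 6 that rose were *Ccne1*, *Ccne2*, *Cdk6*, *Cdkn1b*, *Cdkn2c* and *Cdkn2d*, and 13.0% of all genes rose. *Ccnd2* and *Cdkn1a* fell, as did 20.7% of all genes. The median log2 fold change of the 10 genes was 1.18, against -0.09 over all genes tested.

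Fewer of the 10 were called for OHT at 168h. In IL3, 4 of 10 were called against undifferentiated cells, all upward (*Ccne2*, *Cdkn1a*, *Cdkn1b*, *Cdkn2d*), with 25.4% of all genes called and 10.2% upward. In GCSF, 3 of 10 were called against GCSF 0h, *Cdkn1b* and *Cdkn2d* upward and *Cdk6* downward, with 24.8% of all genes tested (12.1% higher and 12.6% lower) called, so the share of the list was near that of all genes. The median log2 fold changes were 0.47 in IL3 and 0.09 in GCSF, against -0.03 and 0.00 over all genes tested. Set directly against undifferentiated cells, GCSF-OHT 168h had 8 of 10 called, the same number as GCSF 0h, 6 of them higher and 2 lower, where 39.1% of all genes tested (15.5% higher and 23.6% lower) were called. That comparison holds the pre-treatment and OHT together and shares the undifferentiated libraries with the others.

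**Figure D3:**
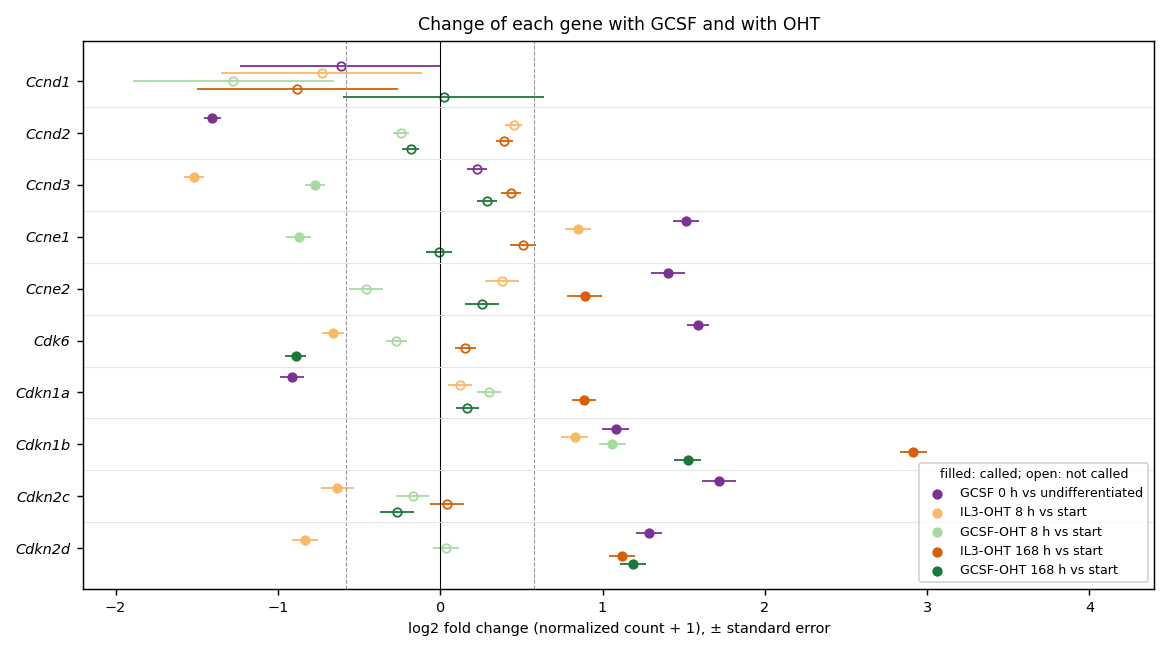
Log2 fold change of normalized count + 1 (horizontal axis, points, bars ± standard error) of each gene (rows) for the pre-treatment and for OHT at 8h and 168h, each OHT group against its own start. Filled points were called, open points were not, and dashed lines mark the threshold of ±0.58. The largest change is that of *Cdkn1b* at IL3-OHT 168h (2.91), *Ccne1* lies on opposite sides of 0 at 8h, and the wide bars are those of *Ccnd1*.

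Whether the change after OHT was alike in the 2 cytokines was tested as an interaction, the OHT effect in GCSF minus that in IL3. At 8h, 5 of 10 genes were called for it (27.4% of all genes tested (16.0% higher and 11.4% lower)). The OHT effect was lower in GCSF for *Ccne1* (-0.87 in GCSF and 0.85 in IL3, difference -1.72, adjusted p = 9.58e-28), for *Ccne2* (difference -0.84) and for *Ccnd2* (difference -0.70). It was higher in GCSF for *Cdkn2d* (difference 0.87) and *Ccnd3* (difference 0.74). *Ccnd3* dipped less in GCSF than in IL3, and *Cdkn2d* dipped in IL3 only. *Cdk6* (difference 0.39) and *Cdkn2c* (difference 0.46) also fell more in IL3. Both had an adjusted p under 0.05 and missed the fold-change threshold. Against their own starts, 6 of 10 were called at IL3-OHT 8h, 2 higher and 4 lower, where 29.7% of all genes tested (11.8% higher and 17.9% lower) were called. At GCSF-OHT 8h 3 of 10 were, 1 higher and 2 lower, where 9.40% of all genes tested (5.39% higher and 4.01% lower) were called. *Cdkn1b* was called upward at 8h in both (0.83 and 1.06), and the difference of 0.23 did not pass (SE 0.12, adjusted p = 0.106).

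At 168h, 4 of 10 genes were called for the interaction, all with a lower OHT effect in GCSF (25.7% of all genes called, 11.3% in that direction). *Cdkn1b* had gained 1.53 in GCSF and 2.91 in IL3 (difference -1.39, adjusted p = 8.58e-20), from starts that already differed by 1.08. *Cdk6* changed by -0.89 in GCSF and 0.15 in IL3 (difference -1.04). For *Cdkn1a* the difference was -0.72 and for *Ccne2* -0.63. The OHT effect on *Cdkn2d* was 1.19 in GCSF and 1.12 in IL3, with a difference of 0.07 (SE 0.11) that did not pass the test. The interaction shares the starting libraries with the comparisons above.

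Averaged over the 25 shared time points, 7 of 10 genes were called between GCSF-OHT and IL3-OHT, 5 higher in GCSF and 2 lower, where 24.5% of all genes were called, 9.34% higher in GCSF and 15.1% lower. Higher in GCSF were *Cdkn2c* (log2 fold change 1.53), *Cdkn2d* (1.13), *Cdk6* (1.00), *Ccne2* (0.73) and *Ccne1* (0.61), and lower were *Ccnd2* (-1.74) and *Cdkn1a* (-0.93), with standard errors of 0.01 to 0.02. *Ccnd3* (0.20) and *Cdkn1b* (0.18) stayed under the fold-change threshold, as *Ccne1* did under upper quartile scaling (0.57). The p-values of this average rest on a spread estimated within plates.

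Taken time point by time point, 22.7% of all pairs of gene and time point were called between the cytokines, 9.97% higher and 12.7% lower in GCSF-OHT. *Ccnd2* was called lower in GCSF at 25 of 25 time points, and *Cdkn2c* and *Cdkn2d* higher at 25 of 25. *Cdk6* was called higher at 23, *Ccne2* at 17 and *Ccne1* at 13, and *Cdkn1a* lower at 19. For *Cdk6*, *Cdkn1b*, *Cdkn2c*, *Cdkn2d* and *Ccnd2* the largest difference among the 25 shared time points, which leave out 96h and 144h, fell at 8h, where the log2 differences were 1.98, 1.31, 2.18, 2.15 and -2.10. *Cdkn1b* was called higher in GCSF at 5 time points, 1h to 8h, and *Ccnd3* at 5, 2h, 3h, 8h, 12h and 16h, and neither was called later.

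**Figure D4:**
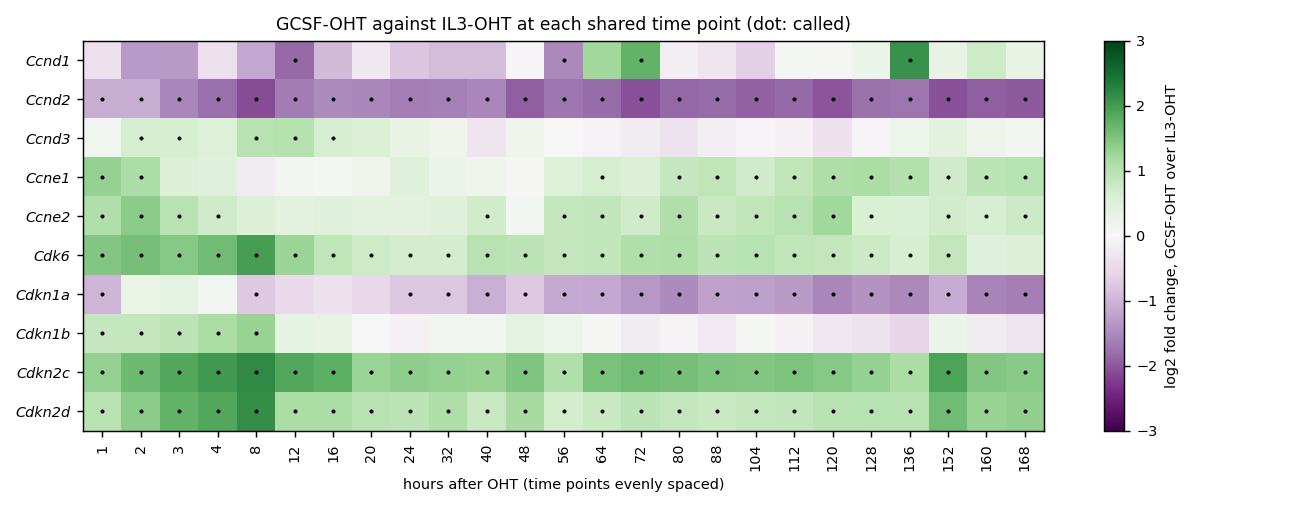
Log2 fold change of GCSF-OHT over IL3-OHT (color, green higher and purple lower in GCSF-OHT, scale −3 to 3) for each gene (rows) at each of the 25 shared time points (columns, hours after OHT, evenly spaced), with dots where the difference was called. *Ccnd2* is purple and *Cdkn2c* and *Cdkn2d* are green in every column, the dots of *Cdkn1b* end at 8h and those of *Ccnd3* at 16h, and the color of *Ccnd1* rests on a few reads.

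In most steps between neighbouring time points none of the 10 genes was called. In IL3, 25 steps gave 10 calls over the 10 genes, where 3.65% of all pairs of gene and step were called (1.76% higher and 1.88% lower). The share of the list was near that of all genes. They were the drops of *Ccnd3* and *Cdkn1a* from 1h to 2h, rises of *Ccne1* from 2h to 3h, of *Ccnd3*, *Cdkn1b* and *Cdkn2d* on the way to 12h and of *Cdkn1a* on the way to 80h, and between 136h and 152h, across the time point left out, drops of *Cdkn2c* and *Cdkn2d* and a rise of *Ccnd1*. In GCSF, 27 steps gave 9 calls, or 15 without replicate 1 (1.81% of all pairs, 0.935% higher and 0.870% lower), among them *Cdkn1b* downward from 64h to 72h and upward from 72h to 80h. Over the whole course, 9 of 10 genes were called for change in IL3 (69.7% of all genes tested) and 8 of 10 in GCSF (47.7%). *Ccnd2* was the gene not called in IL3, and *Ccnd2* and *Cdkn2c* those not called in GCSF, each for want of a log2 fold change over 0.58.

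Per the study's methods, part of the medium was replaced with fresh OHT at 40h, 88h and 136h, which puts 48h, 96h and 144h at 8h after a change. Each of these was compared with the mean of its neighbours, with the 2 time points that the authors set aside included. At IL3-OHT 96h, 4 of 10 genes were called, 1 higher and 3 lower, where 17.5% of all genes tested (9.36% higher and 8.17% lower) were called. *Cdkn2d* had 497, 488 and 486 normalized counts, against 1205 ± 65.1 at 88h and 1269 ± 8.08 at 104h (log2 difference -1.33). *Cdkn1b* with 1967, 1817 and 1822 (-1.06) and *Ccnd3* with 6186, 5862 and 5756 (-0.81) were also lower, and *Ccne1* was higher (0.63), a call lost without replicate 2 (0.55).

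At IL3-OHT 144h, 5 of 10 were called, all lower (15.4% of all genes called, 6.76% lower). They were *Cdkn1b* (-1.12), *Cdkn2c* (-1.12), *Cdk6* (-0.85), *Cdkn2d* (-0.84) and *Ccnd3* (-0.62, not called without replicate 1 at -0.56). *Cdkn1b* fell to 2258, 2321 and 2115, against 5788, 6197 and 5517 at 136h and 3941, 4000.4 and 4217 at 152h, with no overlap. *Ccnd2* was the highest of its course in these libraries, with 24089.7, 24196 and 23944 at 96h and 22388, 22301 and 21752 at 144h, though its log2 differences of 0.46 and 0.33 were under the threshold. At GCSF-OHT 96h *Ccnd3* alone was called (-0.68, with 4.65% of all genes called, 3.53% lower), and at 48h in both cytokines and at GCSF-OHT 144h none of the 10 was (1.60%, 0.350% and 1.85% of all genes). The part of the medium change in these differences was not tested, and the plate of a time point cannot be told apart from it.

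**Figure D5:**
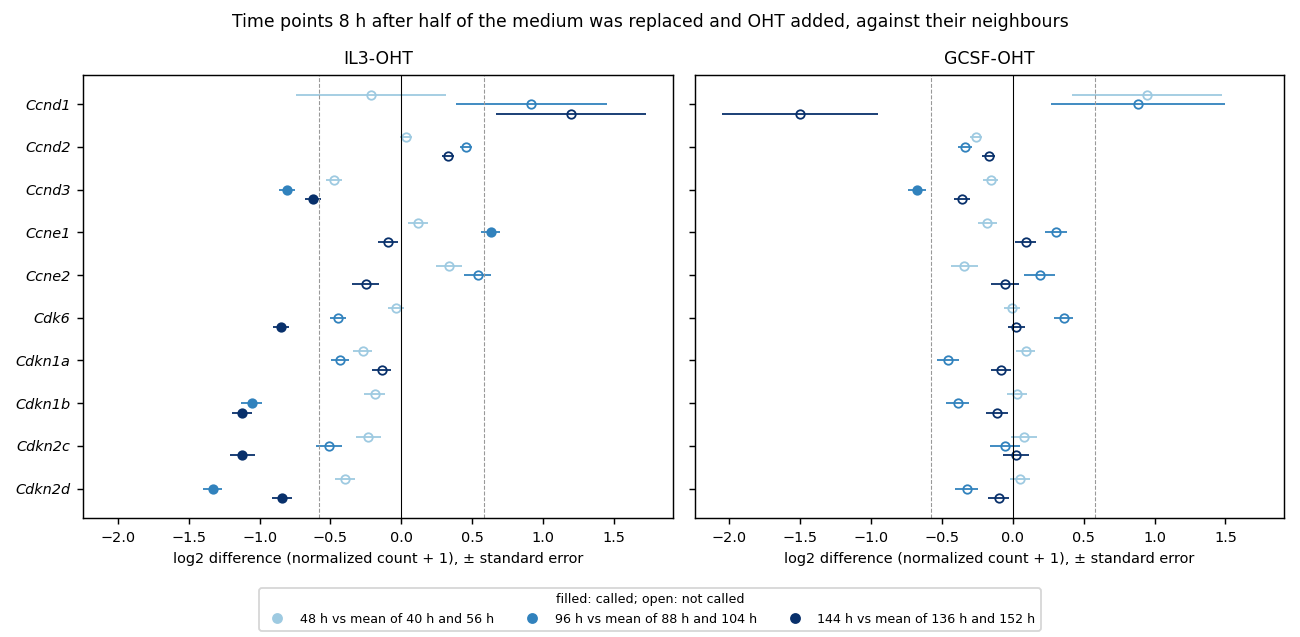
Log2 difference (horizontal axes, points, bars ± standard error) between a time point 8h after a medium change and the mean of its neighbours, for each gene (rows), in IL3-OHT (left) and GCSF-OHT (right). Filled points were called, dashed lines mark ±0.58, and light to dark blue stand for 48h, 96h and 144h. In IL3-OHT the INK4 genes, *Cdkn1b* and *Ccnd3* lie left of 0 at 96h and 144h, whereas in GCSF-OHT only *Ccnd3* at 96h passed.

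The other genes of the G1/S machinery also moved mostly upward with the pre-treatment. Of 31 such genes, 14 were called higher and 3 lower at GCSF 0h, where 13.0% and 20.7% of all genes were (median log2 fold change 0.54, against -0.09 over all genes tested). The highest was *E2f2* (2.38), a factor that switches on S-phase genes, and the lowest *Cdkn2b* (-2.37), the INK4 gene for p15. Of 20 genes of DNA replication and mitosis, 19 were called, all higher (median log2 fold change 1.48, against -0.09 over all genes tested), from *Rrm2* (1.80), a subunit of ribonucleotide reductase, down to *Pcna* (0.34, not called). Over the shared time points 19 of these 20 and 11 of the 31 G1/S genes were called higher in GCSF-OHT than in IL3-OHT, with none lower, where 9.34% of all genes were higher and 15.1% lower. They were led by *Mki67* (1.46) and *E2f2* (3.20).

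With OHT in GCSF the proliferation genes went another way than *Cdkn1b* and *Cdkn2d*. At 168h against GCSF 0h, 13 of the 20 proliferation genes were called, all lower, where 12.6% of all genes were (median log2 fold change -0.73, against 0.00 over all genes tested), with *Cdc20* (-1.29), an activator of the anaphase-promoting complex, the lowest. The G1/S genes were split. Of 31, 4 were higher and 4 lower, a share near the 24.8% of all genes called (median log2 fold change -0.14, against 0.00 over all genes tested), from *E2f2* (2.18) to *Cks1b* (-1.09). In IL3 at 168h, 6 of the 20 proliferation genes were lower than in undifferentiated cells and none higher, *Pcna* being the lowest (-1.21). Among all genes 25.4% were called there, 10.2% of all genes higher. The list's median log2 fold change was -0.35, against -0.03 over all genes tested. Of the 31 G1/S genes 2 were higher and 3 lower there, a smaller share than the 25.4% of all genes called, from *Ccng2* (1.54), an atypical cyclin linked to arrest, to *Cdkn2b* (-1.78).

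At GCSF-OHT 8h, where *Ccne1* fell, 9 of 20 proliferation genes were called lower and none higher, and of the 31 G1/S genes 7 were lower and 2 higher, where 4.01% of all genes were lower and 5.39% higher. The lowest were *Mcm2* (-1.03), a subunit of the replicative helicase, and *Cdc6* (-1.02), which loads it. At IL3-OHT 8h, where *Ccne1* rose, 3 of 20 proliferation genes were lower and none higher, shares under those of all genes (17.9% lower and 11.8% higher). Of the 31 G1/S genes 5 were higher and 3 lower there, from *Skp2* (0.83), which directs p27 to degradation, to *Cdkn2b* (-2.21). At IL3-OHT 96h, where *Cdkn1b* and *Cdkn2d* were low, 6 of 20 proliferation genes were called higher than in the neighbours and none lower, where 9.36% of all genes were higher and 8.17% lower, with *Mcm2* (1.33) the highest, but the list's median log2 difference was 0.05. At IL3-OHT 144h, where both were low again, 3 were higher and 1 lower (median -0.08), from *Mcm5* (1.03) to *Plk1* (-0.59). Among all genes 15.4% were called there, 6.76% of all genes lower.

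Lists of genes that share known regulators with the inhibitors are described next, and the part of these regulators was not tested. Of 15 p53 targets other than *Cdkn1a*, 14 were tested. Over the shared time points 7 were lower in GCSF and none higher, where 15.1% of all genes were lower (median log2 fold change -0.52, against -0.06 over all genes tested), with *Eda2r* (-1.14) the lowest. At IL3-OHT 168h, where *Cdkn1a* was called higher, 3 of the 14 were higher and 2 lower, where 25.4% of all genes were called and 10.2% were higher, from *Sesn2* (1.90) to *Btg2* (-1.88), and with the pre-treatment, where *Cdkn1a* was lower, 2 were higher and 6 lower, where 13.0% and 20.7% of all genes were, from *Fas* (1.10) to *Btg2* (-3.05).

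FOXO factors are known activators of *Cdkn1b*, and their part in its changes here was not tested. Of 10 FOXO factors and targets, 4 were called higher and none lower at GCSF-OHT 8h, where 5.39% of all genes were higher (median log2 fold change 0.19, against 0.00 over all genes tested), with *Ccng2* (0.99) the highest. At IL3-OHT 8h 1 was higher and 6 were lower, where 17.9% of all genes were lower (median log2 fold change -0.66, against -0.08 over all genes tested), from *Foxo3* (0.65) to *Irs2* (-1.82), and *Cdkn1b* was called upward at both. At 168h 5 were higher and 2 lower in GCSF against GCSF 0h (median log2 fold change 0.62, against 0.00 over all genes tested), where 12.1% of all genes were higher and 12.6% lower. In IL3 4 were higher and 1 lower (median log2 fold change 0.25, against -0.03 over all genes tested), where 10.2% of all genes were higher. With the pre-treatment, where *Cdkn1b* rose, 4 were lower and none higher, from *Foxo4* (0.57, not called) to *Klf2* (-1.70), where 20.7% of all genes were lower. Around the medium changes, where *Cdkn1b* was low, 4 were lower and none higher at IL3-OHT 96h and 5 lower and none higher at 144h, where 8.17% and 6.76% of all genes were lower, and the lowest were *Ccng2* (-1.22) and *Txnip* (-1.15). *Ccng2* is also in the G1/S list, as is *Ccng1* of the p53 list.

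Across the 54 means of time points kept in the fit, the genes most like each member by Pearson's r on the log2 scale were sought among the 10647 genes that averaged 50 normalized counts or more. These values are descriptions, since the points share cytokine, plate and starting cells. *Ccnd2* was most like *Cish* (r = 0.98), a feedback inhibitor of cytokine signalling induced by STAT5, and *F2rl2* (r = 0.97). Both E cyclins were most like *Dna2* (r = 0.95 for *Ccne1* and 0.93 for *Ccne2*) and then *Cdc7* (0.94 and 0.92), genes of DNA replication. *Cdk6* was most like *Arhgap11a* and *Lin9* (both r = 0.96), and *Cdkn2c* like *1700020L24Rik* and *Ncapd3*, a condensin subunit (both r = 0.97).

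*Cdkn2d* was most like *Dlg4* and *Ccdc126* (both r = 0.96), and *Ccnd3* like *Ntng2* (r = 0.94) and *Ptprv* (r = 0.93). *Cdkn1a* was most like *Mrpl45* and *Fam117b* (both r = 0.95), and *Cdkn1b* like *Ankzf1* (r = 0.97) and *Il15ra* (r = 0.96). For *Ccnd1* the highest values were 0.69 (*Stk19*) and 0.66 (*Aopep*).

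Between members, r within one cytokine often differed from r over both. *Ccnd3* and *Cdkn2d* ran together in each, with r = 0.95 over 26 IL3 means and 0.86 over 28 GCSF means, and so did *Cdkn1b* and *Cdkn2d* (0.89 and 0.87) and the E cyclins (0.86 and 0.71). *Ccnd2* and *Cdkn2c* had r = −0.94 over all 54 means, but −0.15 within IL3 and −0.59 within GCSF, and the pooled value includes the gap between cytokines. *Cdk6* and *Cdkn1b* had r = 0.27 in IL3 and −0.76 in GCSF.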

How the data were processed

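Gene expression in 165 bulk libraries (56 groups) was measured by polyA RNA-seq. The deposited values are a signal, gene-level counts that the authors estimated with Salmon on GRCm38 and divided by DESeq2 size factors, with versions not given in the sources used here. In each library the values came in steps of 1 read (100% whole, relative tolerance 1e-06), from which reads were recovered. From these, log2(value + 1) was fitted with limma 3.58.1 (trend, R 4.3.3), with a mean per group over 159 libraries, without IL3-OHT 96h and 144h as in the study, or over all 165 libraries (17439 genes) for the comparisons around medium changes. Genes with a value of at least 5 in 1 library or more entered, and p-values were adjusted by Benjamini-Hochberg over all of them. Change over time was called from the moderated F-test together with a log2 fold change over 0.58 at 1 time point or more.

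Alternatives were pseudocounts of 0.5 and 5, no filter, a mean of at least 10, upper quartile scaling, each replicate left out, a replicate block, IL3-OHT 96h and 144h kept, only the groups compared, and, on the recovered reads, edgeR 4.0.16 (quasi-likelihood) and DESeq2 1.42.0. Leaving out 120h was added after the data were seen. The steps were tested on simulated data. The 10 genes and the gene lists were chosen with earlier results of these data known. All 10 are named, with the 2 genes most like each, and the highest and lowest gene of a list in a comparison. A marker gene of the lists is not reported here. Floors cover counting error only, while SDs and standard errors measure the spread between libraries. The depth of 14600246 to 33147945 reads limits *Ccnd1* alone among the 10. Promoter windows were searched with Python 3.11.15 (pandas 2.3.3).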

Additional observations from a re-analysis of the deposited data

Results flagged for a closer look

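The change after OHT differed between GCSF and IL3 for several genes. The difference itself was tested (limma, effect in GCSF minus effect in IL3, log2 scale, Benjamini-Hochberg adjusted over all genes tested). At 8h the difference was -1.72 for *Ccne1*, -0.84 for *Ccne2* and -0.70 for *Ccnd2*, whose effect was lower in GCSF, and 0.74 for *Ccnd3* and 0.87 for *Cdkn2d*, whose effect was higher in GCSF. At 168h it was -1.39 for *Cdkn1b*, -1.04 for *Cdk6*, -0.72 for *Cdkn1a* and -0.63 for *Ccne2*. Both effects use starting groups of 3 libraries each, and GCSF 0h cells had been in another cytokine for 48h before the first OHT.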

How the results depend on the processing

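The number of the 10 genes called in a comparison stayed within 1.5 times its value in 227 of 231 recomputed counts. The exceptions were called steps in GCSF, 8 to 15 when a replicate was left out, GCSF 96h, 1 to 2, and GCSF 144h, 0 to 1 when a replicate was left out and 1 with a pseudocount of 0.5. Of 2053 recomputed values of single genes, 2022 kept their direction and side of the threshold, 7 lost a call, 13 gained one and 11 changed sign, none of them a called value. With edgeR, *Cdk6* at GCSF 48h changed sign (0.0080). Leaving out a replicate gave -0.12 to 0.19 for *Cdkn2c* at IL3-OHT 168h, -0.20 to 0.14 for *Ccnd1* and -0.073 to 0.065 for *Ccne1* at GCSF-OHT 168h against GCSF 0h, -0.00074 to 0.16 for the interaction of *Cdkn2d* at 168h and -0.022 to 0.084 for *Cdkn2d* at GCSF-OHT 8h. It gave -0.015 to 0.016 for *Cdk6* and -0.0055 to 0.091 for *Cdkn2d* at GCSF 48h, and -0.15 to 0.032 for *Ccne2*, -0.0087 to 0.062 for *Cdk6* and -0.020 to 0.068 for *Cdkn2c* at GCSF 144h. The interaction of *Ccnd2* at 168h was just under the threshold (-0.58) and was called by edgeR (-0.60) and DESeq2 (-0.58) and by limma without replicate 2 (-0.60) or replicate 3 (-0.59). The cause was not tested.

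Replicate numbers did not pair the samples. Deviations of same-numbered libraries correlated at -0.05 to 0.04 over 18 pairs, 0 of them over 0.1, and 5 correlated best with their own number. With a replicate block the counts were 8 for the pre-treatment, 4 and 3 for OHT at 168h in IL3 and GCSF, 6 and 3 at 8h, and 7 over the shared time points, as without it.

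Of all genes tested, 0.350% were called at GCSF 48h, against 0.135% without replicate 1, 0.227% without replicate 3 and 0.533% with edgeR. At IL3 48h 1.60% were called and 0.651% without replicate 2, at GCSF 96h 4.65% and 2.49% without replicate 2, and at GCSF 144h 1.85% and 1.01% without replicate 1. Depth limits *Ccnd1*, and the number of wells per plate limits all tests.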
